A study of Mus musculus with 12 samples.

Results

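Glycolysis and hypoxia response genes were compared between primary colonic myofibroblasts from mice lacking tumor necrosis factor receptor 1 (genotype TNFR1-/-, 6 libraries, here knockout 1 to 6) and from control mice with 1 intact allele (TNFR1-/+, 6 libraries, here control 1 to 6). The set holds 41 genes chosen by symbol, which are glycolytic enzymes, glucose and lactate transporters, and targets and regulators of the hypoxia-inducible factors (HIF). All 41 were found among the 24411 genes of the table, and all 41 were among the 12146 genes with enough counts to be tested. Both groups were on a C57BL/6 background and came from the distal colon of mice aged 16 weeks. Cells were expanded in low-glucose medium with serum, insulin and epidermal growth factor, used at passage 6 to 8, and collected untreated after 5 days in Matrigel, per the labels. The labels name no cell-type-specific deletion and do not say how many animals or cultures stand behind the 6 libraries of a group.

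Glycolysis turns glucose into pyruvate in the cytosol, and lactate dehydrogenase can then turn pyruvate into lactate, which leaves the cell through monocarboxylate transporters. HIF is a transcription factor whose alpha subunit is hydroxylated on prolines by EGLN enzymes when oxygen is present and is then marked for degradation by the VHL protein. When oxygen is scarce, the alpha subunit persists and raises transcription of most glycolytic genes and of genes that limit mitochondrial respiration, control pH and modify collagen. HIF is governed largely at the protein level, and RNA counts do not show it. In the colon, the lumen is poor in oxygen, and myofibroblasts lie under the epithelium that faces it.

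Of the 41 genes, 29 fell in the knockout group, none rose and 12 did not pass the test (quasi-likelihood test of edgeR, p adjusted by Benjamini-Hochberg over all tested genes, threshold 0.05). That is 70.7% lower, beside 21.6% of all tested genes called lower and 21.4% called higher. In 26 of the 41, or 63.4%, every knockout library lay below every control library, beside 12.5% of all tested genes. The median log2 difference, knockout minus control, was -0.62 over the 41 genes and 0.02 over all tested genes. The largest falls were those of Ndufa4l2, Aldoc, Ndrg1 and Car9, which were 14.6-fold, 6.18-fold, 6.14-fold and 4.54-fold lower. The transcript of the HIF-1 alpha subunit itself, Hif1a, did not pass the test.

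**Figure D1:**
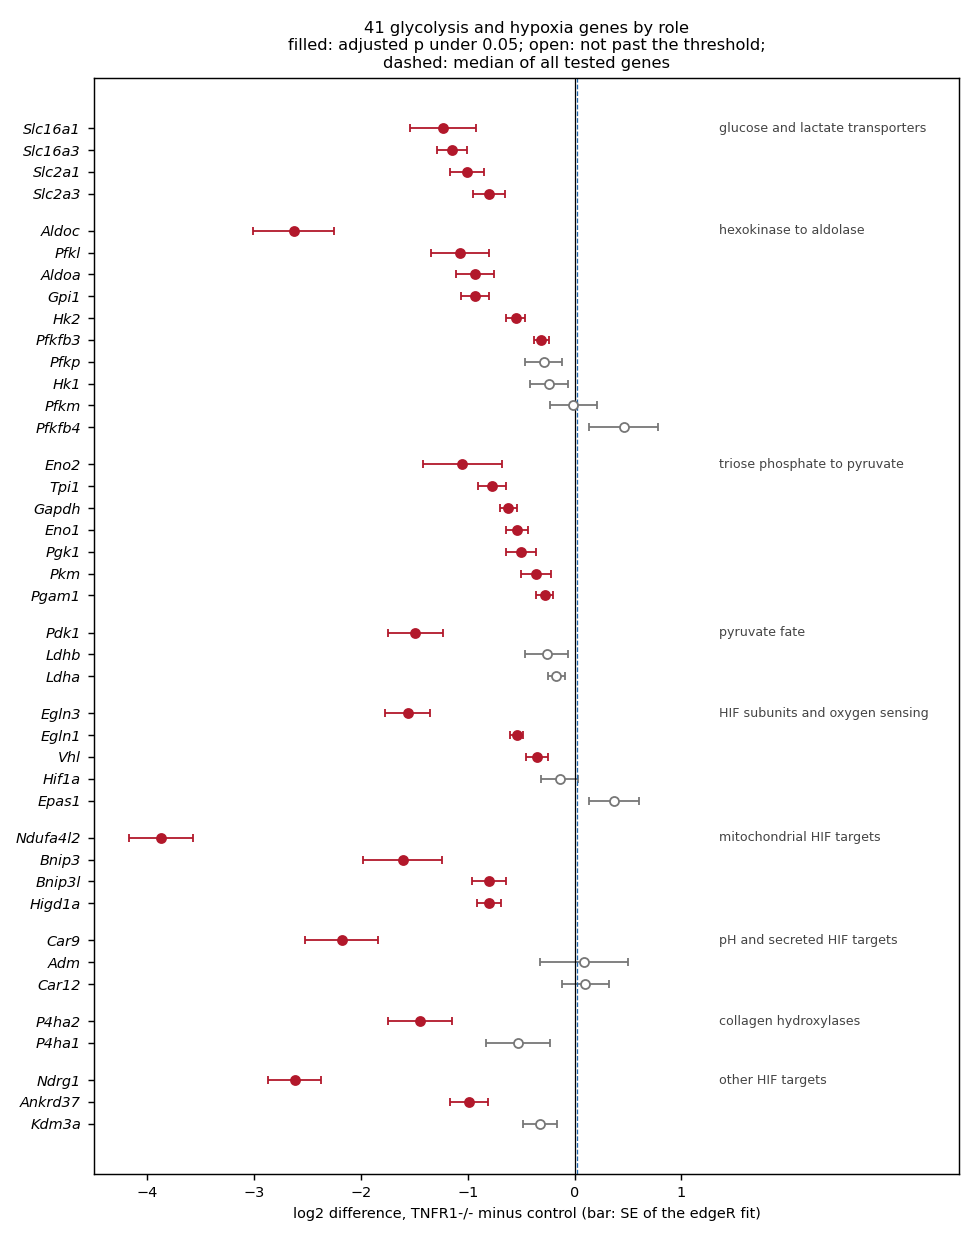
Log2 difference in expression, TNFR1-/- minus control, of the 41 genes on the horizontal axis, grouped by role down the page. Points are edgeR estimates with standard errors over 6 libraries a group, filled where the adjusted p was under 0.05. The 29 filled points all lie below 0, and Ndufa4l2 at -3.87 lies farthest from it.

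The 12 libraries stood in 4 sets of alike profiles that the labels do not explain, with knockout 1 to 4 apart from knockout 5 and 6, and control 1 to 5 apart from control 6. Rank correlations over tested genes were at least 0.989 within a set, 0.926 to 0.927 between the knockout sets and 0.952 to 0.954 between the control sets. Control 6 correlated at 0.968 to 0.976 with knockout 1 to 4, higher than with the other controls. Total counts were 6543013 to 9937008 in the knockout libraries and 11890729 to 16458689 in the control libraries, so depth and genotype cannot be told apart. With all libraries thinned to 1 depth, 28 of the 40 genes then tested were lower and 0 higher, beside 20.6% and 20.3% of all genes tested in that fit. The 45S ribosomal RNA gene Rn45s took 7.01% and 8.25% of counts in knockout 5 and 6 and 1.63% to 2.1% in knockout 1 to 4, against 0.871% to 1.19% in control 1 to 5 and 0.351% in control 6. With Rn45s left out, 29 of the 41 genes were lower and 0 higher, beside 21.5% and 21.3% of all genes; its part in the results was not tested. Tnfrsf1a, the targeted gene, was read at 40.6 to 46.1 CPM (counts scaled to library size with TMM factors) in the knockout and 54.9 to 81.3 CPM in the control libraries (log2 difference -0.76, SE 0.10). The labels do not say which part of the gene is deleted, so its remaining counts check the genotype only in part. Mesenchymal markers such as Vim, Acta2 and Col1a1 were abundant in all libraries. The sum of all 12 was 13704 CPM in knockout 5 and 6, 34276 CPM in knockout 1 to 4, 25734 CPM in control 1 to 5 and 35955 CPM in control 6. Single markers differed in direction: 5 were higher in the knockout (Vim, Acta2, Tagln, S100a4 and Myh11), 2 lower (Col3a1 and Pdgfra) and 5 not past (median log2 difference 0.36). Collagens weigh heavily in the sum, with Col1a1 at 1993 to 11420.3 CPM in knockout and 8073 to 13267 CPM in control libraries. The 10 epithelial markers summed to 14.9 to 23.3 CPM in knockout and 7.49 to 20.2 CPM in control libraries, led by Krt19 (5.40 to 16.8 CPM in knockout and 5.74 to 10.7 CPM in control libraries) and Krt20 (4.14 to 5.96 CPM in knockout and 0.585 to 7.38 CPM in control libraries), while Epcam, Cdh1, Vil1 and Cldn7 never exceeded 3 counts in a library. Nor did any of 7 red cell markers. Markers of dividing cells summed to 1201 CPM in knockout 5 and 6, 457 CPM in knockout 1 to 4, 395 CPM in control 1 to 5 and 346 CPM in control 6. The 13 macrophage and leukocyte markers summed to 40.1 to 61.9 CPM in the knockout and 85.9 to 137 CPM in the control libraries, with 7 of 10 tested members lower and 0 higher, Cd3e at 0 throughout and Lyz2 the highest (27.3 to 36.9 CPM in knockout and 49.2 to 93.2 CPM in control libraries). Endothelial markers summed to 5.28 to 9.94 CPM in knockout and 7.10 to 11.3 CPM in control libraries, with Cldn5 at 0, and glial and neuronal markers to 25.1 to 35.7 CPM in knockout and 19.5 to 23.9 CPM in control libraries. The part of these markers in the results was not tested, and in bulk RNA fewer cells of a type and less RNA per cell cannot be told apart.

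Most of the 41 genes were also called lower with the libraries that stood apart left out, as long as libraries were counted singly. Without knockout 5 and 6, 28 fell and 0 rose, beside 27.5% and 24.5% of all tested genes. Without control 6, 28 fell and 2 rose, beside 24.5% and 25.4%. With all 3 of these libraries left out, 31 fell and 5 rose, beside 36.4% and 34.9%, but that comparison sets 1 set against 1 set, so set and genotype cannot be told apart. When each set was summed and treated as 1 sample, 2 against 2, no gene of 13132 passed the adjusted threshold (smallest adjusted p over the 41 genes 0.613). In that fit, the 29 genes that fell kept log2 differences below 0 but lost the call. At an unadjusted p under 0.05, 9 of the 41 passed, all lower, beside 4.64% of all genes lower and 3.34% higher. These 9 were Ndufa4l2, Ndrg1, Slc16a3, Aldoc, Pdk1, Car9, P4ha2, Slc2a1 and Bnip3. The sample titles end in MS1 to MS6 in each group, and this tag was read only as a library number. Since the labels do not state which animal or culture a library came from, p-values over the 12 libraries rest on sample-to-sample spread alone. Part or all of that spread may be technical.

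HIF binds DNA at a short core, ACGTG or GCGTG, and the 250 bases before the transcription start were searched for both on either strand. RefSeq (GRCm38.p6) gave promoters for 36 of the 41 genes, with 51 start sites in all. For 42 of the 51, the bases after the start lay in a transcript of the gene on the same strand. All 51 were counted, so some windows may not lie before a start in use. At least 1 core was found in 39 of these 51 windows (76.5%), in 56.2% of the windows of all tested genes and in 38.6% of all windows of the table. The ACGTG form was in 17 of 33 windows (51.5%) of genes that fell, 5 of 18 (27.8%) of genes that did not pass, and 21.6% of the windows of all tested genes. Either core was in 78.8% of the windows of genes that fell and 72.2% of those of genes that did not pass. Counted by gene, the order was the other way, with a core in at least 1 window of 84.0% of the genes that fell and 90.9% of those that did not pass. The share by gene over all tested genes with a promoter was 62.5%. Some genes have several windows, some of which overlap, so windows are not independent. Tested genes with a number of CG pairs like that of the members as a whole held a core in 60.4% and ACGTG in 23.1% of their windows. Both cores contain a CG pair, and windows of genes that fell held a median of 19, against 10.5 in genes that did not pass. The part of this in the ACGTG shares was not tested. A match is a description of letters, not a bound site. The windows of 5 genes that fell are shown because they hold these letters. For Ldha, which did not pass, 1 of 2 windows is shown because it holds as many cores as any of them. The bases after that start were found in no Ldha transcript of GENCODE M21, unlike those after the other start, whose window holds 1 core. Each is the 250 bases before the start, read in the direction of the gene, with the cores on either strand in capitals; CACGTG counts once on each strand.
Bnip3, chr7:138909507-138909756 on the minus strand: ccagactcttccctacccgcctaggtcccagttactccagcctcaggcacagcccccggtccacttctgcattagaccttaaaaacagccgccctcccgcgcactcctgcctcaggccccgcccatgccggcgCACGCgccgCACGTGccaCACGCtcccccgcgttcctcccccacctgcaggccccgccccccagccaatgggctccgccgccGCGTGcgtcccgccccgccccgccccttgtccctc
Ankrd37, chr8:45999851-46000100 on the minus strand: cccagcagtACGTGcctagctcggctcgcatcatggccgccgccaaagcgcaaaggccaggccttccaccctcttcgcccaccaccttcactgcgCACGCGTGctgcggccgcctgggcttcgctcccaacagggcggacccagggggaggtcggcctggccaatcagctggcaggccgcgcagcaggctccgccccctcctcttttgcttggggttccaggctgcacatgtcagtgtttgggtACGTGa
P4ha2, chr11:54100674-54100923 on the plus strand: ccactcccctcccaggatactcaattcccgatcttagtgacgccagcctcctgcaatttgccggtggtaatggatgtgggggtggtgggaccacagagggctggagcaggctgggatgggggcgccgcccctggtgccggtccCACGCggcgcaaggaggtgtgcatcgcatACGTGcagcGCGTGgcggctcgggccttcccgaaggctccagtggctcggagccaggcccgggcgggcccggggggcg
Slc16a3, chr11:120948817-120949066 on the plus strand: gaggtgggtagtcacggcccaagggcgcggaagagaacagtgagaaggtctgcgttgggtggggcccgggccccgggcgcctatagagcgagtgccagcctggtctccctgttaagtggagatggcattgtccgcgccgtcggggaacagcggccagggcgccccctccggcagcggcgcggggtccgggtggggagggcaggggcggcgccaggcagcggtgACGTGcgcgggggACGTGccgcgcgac
Egln3, chr12:54203875-54204124 on the minus strand: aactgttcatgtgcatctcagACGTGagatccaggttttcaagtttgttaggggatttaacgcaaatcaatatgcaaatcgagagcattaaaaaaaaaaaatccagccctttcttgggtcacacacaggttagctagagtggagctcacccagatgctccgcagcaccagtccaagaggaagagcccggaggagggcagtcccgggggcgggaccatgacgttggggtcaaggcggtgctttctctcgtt
Ldha, chr7:46845554-46845803 on the plus strand: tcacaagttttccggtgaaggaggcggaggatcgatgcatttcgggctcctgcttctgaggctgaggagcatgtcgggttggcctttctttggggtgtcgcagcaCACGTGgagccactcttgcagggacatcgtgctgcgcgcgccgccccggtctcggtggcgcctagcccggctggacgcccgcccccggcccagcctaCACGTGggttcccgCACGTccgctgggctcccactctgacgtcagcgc
These windows hold 5, 4, 3, 2, 1 and 5 cores. The log2 differences of Bnip3, Ankrd37, P4ha2, Slc16a3 and Egln3 were -1.61, -0.99, -1.45, -1.15 and -1.56. These 5 were picked because they fell and hold cores, so no relation of cores to the size of the change can be read from them.

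Both glucose transporters and both lactate transporters fell. Slc2a1, the main glucose importer of dividing cells, had 249.6, 242, 251, 254, 141 and 141 CPM in knockout 1 to 6, against 442, 429.9, 452, 434, 429 and 389.5 CPM in control 1 to 6. The groups did not overlap, and knockout 5 and 6 were the lowest libraries (log2 difference -1.01, SE 0.16, adjusted p = 0.000422). Slc2a3, a glucose importer of high affinity, ranged over 7.89 to 13.7 CPM in knockout and 13.7 to 20.9 CPM in control libraries (log2 difference -0.80, SE 0.15, adjusted p = 0.00115).

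Slc16a3, which exports lactate, had 98.7, 91.7, 112, 99.4, 62.1 and 61.3 CPM in knockout 1 to 6, against 199.6, 198, 199, 192, 185 and 192 CPM in control 1 to 6 (log2 difference -1.15, SE 0.14, adjusted p = 8.19e-05). Each knockout library lay below each control library, and control 6 stood among the other controls. Slc16a1, which moves lactate and pyruvate in either direction, had 29.6, 32.1, 35.9, 27.6, 69.4 and 67.7 CPM in knockout 1 to 6, against 118, 109.8, 117, 121, 113 and 38.3 CPM in control 1 to 6 (log2 difference -1.23, SE 0.31, adjusted p = 0.00702). Here the groups overlapped: control 6 lay far below the other controls and below knockout 5 and 6, and knockout 5 and 6 lay above knockout 1 to 4. The fall of Slc16a1 thus had no single direction between sets, with a log2 ratio of 0.84 for knockout 5 and 6 over control 6 and of -1.91 for knockout 1 to 4 over control 1 to 5.

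In the first steps of glycolysis, from hexokinase to aldolase, 6 of 10 genes fell and 4 did not pass. The isomerase Gpi1, which converts glucose 6-phosphate to fructose 6-phosphate, spanned 322 to 508 CPM in knockout and 714 to 873 CPM in control libraries (log2 difference -0.93, SE 0.13, adjusted p = 0.000191). Pfkl, the liver-type phosphofructokinase that commits the sugar to glycolysis, had 204, 203, 213, 197, 71.9 and 71.4 CPM in knockout 1 to 6, against 332, 333, 341, 337, 333 and 333 CPM in control 1 to 6 (log2 difference -1.07, SE 0.27, adjusted p = 0.00704). The 6 controls were nearly level, and knockout 5 and 6 lay far below knockout 1 to 4. Aldoa, the main aldolase, had 1252, 1266, 1405, 1249, 755 and 743 CPM in knockout 1 to 6, against 2217, 2269, 2218, 2206, 2234 and 1591 CPM in control 1 to 6 (log2 difference -0.93, SE 0.18, adjusted p = 0.00133). The groups did not overlap, with control 6 the lowest control. Aldoc, the brain-type aldolase, had 2.09, 1.28, 2.53, 2.24, 0.623 and 0.207 CPM in knockout 1 to 6, against 9.87, 11.1, 8.41, 9.38, 9.55 and 6.30 CPM in control 1 to 6 (log2 difference -2.63, SE 0.38, adjusted p = 0.000192). It rested on few reads, with 2 counts in the lowest library, and every knockout library was below every control.

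Hk2, the inducible hexokinase that traps glucose in the cell, fell and spanned 88.7 to 108 CPM in knockout and 120.3 to 159 CPM in control libraries (log2 difference -0.55, SE 0.09, adjusted p = 0.000338), while Hk1, the constitutive form, did not pass at 101 to 182 CPM in knockout and 153 to 254 CPM in control libraries (log2 difference -0.24, SE 0.18). Pfkm and Pfkp, the muscle-type and platelet-type phosphofructokinases, likewise did not pass, with log2 differences of -0.01 (SE 0.22) and -0.29 (SE 0.17). Pfkm spanned 19.9 to 44.0 CPM in knockout and 29.4 to 51.9 CPM in control libraries, and Pfkp spanned 39.1 to 79.6 CPM in knockout and 73.7 to 79.5 CPM in control libraries. Pfkfb3 and Pfkfb4 make and break fructose 2,6-bisphosphate, the activator of phosphofructokinase. Pfkfb3 fell and spanned 37.8 to 48.2 CPM in knockout and 49.4 to 57.6 CPM in control libraries (log2 difference -0.31, SE 0.07, adjusted p = 0.00554). Pfkfb4 did not pass (log2 difference 0.46, SE 0.32, adjusted p = 0.253) at 4.05 to 10.9 CPM in knockout and 4.31 to 12.1 CPM in control libraries. Without control 6, whose level of 12.1 CPM was the highest of all 12 libraries, Pfkfb4 was higher in the knockout (log2 difference 0.82, adjusted p = 0.0117).

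In the later steps, from triose phosphate to pyruvate, all 7 genes fell. Tpi1, the triose phosphate isomerase, had 369, 365, 411, 378, 267 and 250.3 CPM in knockout 1 to 6, against 584, 612, 604, 611, 581 and 487 CPM in control 1 to 6 (log2 difference -0.77, SE 0.13, adjusted p = 0.000602). Gapdh, the dehydrogenase often used as a reference gene in expression assays, had 678, 687, 735, 691, 667 and 695 CPM in knockout 1 to 6, against 1054, 1136, 1088, 1078, 1122 and 918 CPM in control 1 to 6 (log2 difference -0.62, SE 0.08, adjusted p = 0.000137). Neither gene overlapped between groups, and the 6 knockout libraries were nearly level for Gapdh. Pgk1, the phosphoglycerate kinase that makes ATP, had 843, 839, 943, 860.0, 601 and 575 CPM in knockout 1 to 6, against 1141, 1131, 1131, 1138, 1163 and 903 CPM in control 1 to 6 (log2 difference -0.50, SE 0.14, adjusted p = 0.0107). Knockout 3 was above control 6 for Pgk1, so the groups overlapped. Eno2, the neuron-type enolase, had 27.6, 31.8, 27.2, 27.8, 6.43 and 5.79 CPM in knockout 1 to 6, against 42.6, 42.0, 43.6, 44.8, 42.2 and 45.3 CPM in control 1 to 6 (log2 difference -1.05, SE 0.37, adjusted p = 0.0346). Its log2 ratios over control 1 to 5 and over control 6 were -2.82 and -2.89 in knockout 5 and 6, but -0.59 and -0.66 in knockout 1 to 4, and the adjusted p was 0.0555 to 0.0588 without any 1 of control 1 to 5.

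The mutase Pgam1, which moves a phosphate within phosphoglycerate, spanned 630.0 to 782 CPM in knockout and 820.4 to 862 CPM in control libraries (log2 difference -0.28, SE 0.08, adjusted p = 0.0158). Eno1, the general enolase, spanned 1325 to 1718 CPM in knockout and 2128 to 2249.7 CPM in control libraries (log2 difference -0.54, SE 0.10, adjusted p = 0.00123). Pkm, the pyruvate kinase of the last step, spanned 1525 to 2309 CPM in knockout and 2467 to 2983 CPM in control libraries (log2 difference -0.36, SE 0.14, adjusted p = 0.048). The Pkm call was lost in 17 of 24 alternative settings, 11 of them leaving out 1 library, with adjusted p up to 0.0929 in those 11. Copies of Gapdh, Aldoa, Eno1, Pgam1, Tpi1 and Ldha stand elsewhere in the mouse genome as processed pseudogenes, and how the authors' counting shared reads with them is not given in the sources used here, so the levels of these genes are uncertain.

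**Figure D2:**
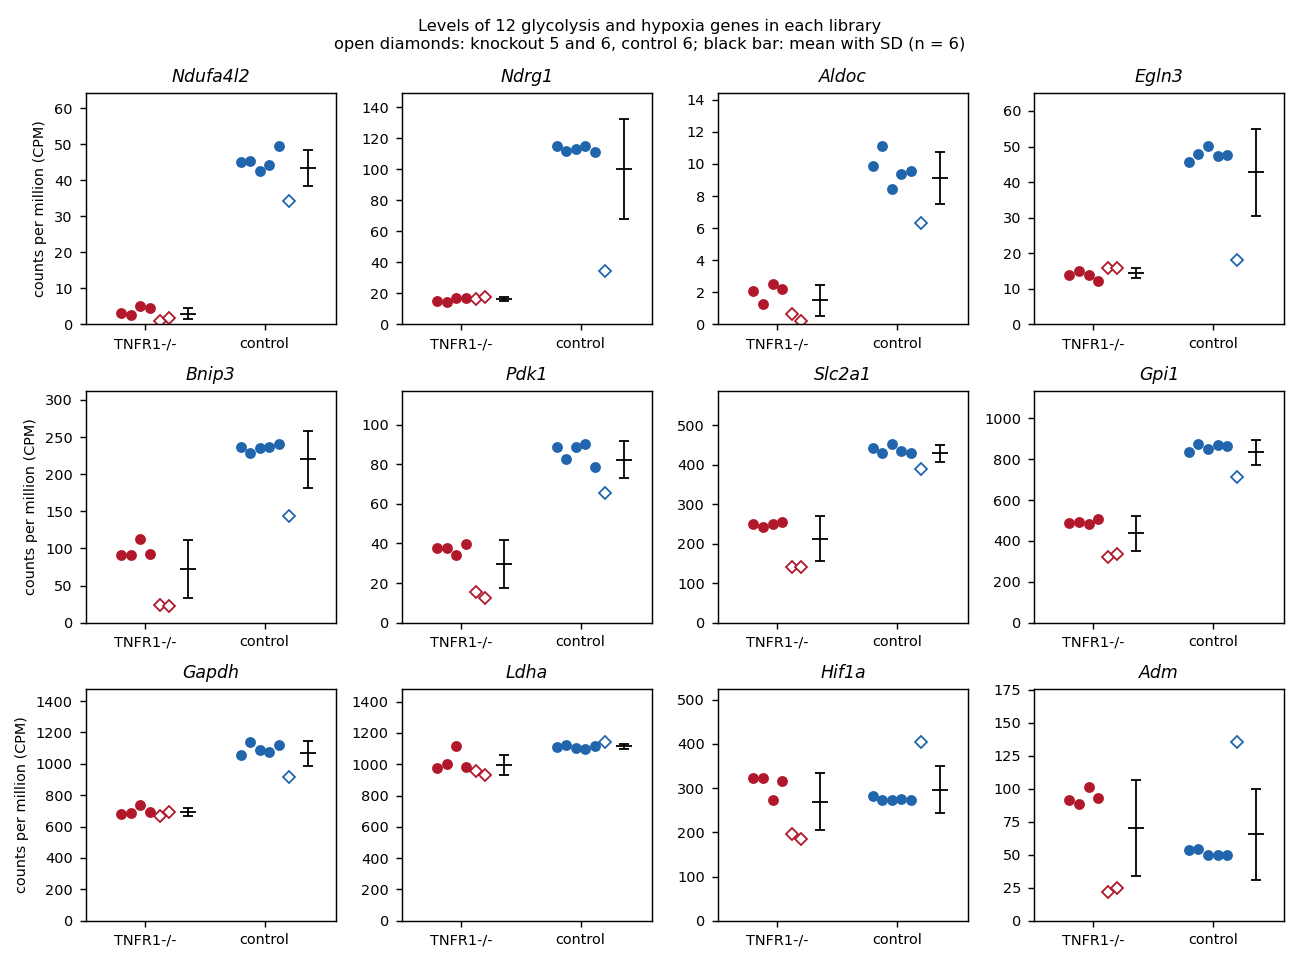
Expression in CPM (vertical axes from 0) of 12 of the genes in each library, TNFR1-/- left and control right. Open diamonds are knockout 5 and 6 and control 6, and black bars give the mean and SD of 6 libraries. Ndufa4l2 and Gapdh separate the groups, whereas Ldha, Hif1a and Adm overlap and control 6 stands apart from the other controls for Ndrg1, Egln3, Hif1a and Adm.

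At the fate of pyruvate, Pdk1 fell and the lactate dehydrogenases did not pass. Pdk1, the kinase that shuts pyruvate dehydrogenase and so keeps pyruvate out of mitochondria, had 37.6, 37.5, 34.0, 39.5, 15.4 and 12.6 CPM in knockout 1 to 6, against 88.6, 82.4, 88.8, 90.0, 78.7 and 65.3 CPM in control 1 to 6 (log2 difference -1.49, SE 0.26, adjusted p = 0.000718). Its groups did not overlap, and knockout 5 and 6 were lowest. Ldha, the lactate dehydrogenase subunit that favours lactate formation, had 975, 1003, 1119, 981, 956 and 931 CPM in knockout 1 to 6, against 1108, 1126, 1102, 1096, 1118 and 1139 CPM in control 1 to 6 (log2 difference -0.17, SE 0.08, adjusted p = 0.123). Only knockout 3 reached the range of the controls, and with library totals alone as scaling the adjusted p was 0.0393. Ldhb, the other subunit, had 29.4, 33.4, 33.7, 32.6, 16.4 and 15.7 CPM in knockout 1 to 6, against 30.6, 29.1, 28.7, 33.2, 30.2 and 40.4 CPM in control 1 to 6 (log2 difference -0.26, SE 0.20, adjusted p = 0.315). Knockout 5 and 6 were low and control 6 was high, while knockout 1 to 4 lay at about the level of control 1 to 5.

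Isoform use was set side by side per length, as the share of CPM per kilobase of the longest coding transcript in GENCODE M21, which may differ from the annotation behind the counts. Of the 3 phosphofructokinases, Pfkl made up 59.6% ± 4.84 in knockout and 74.5% ± 1.90 in control libraries (SD, n = 6 each). The Pfkl shares did not overlap, at 53.2% to 65.0% in knockout and 70.8% to 76.1% in control libraries. Pfkm held 17.8% ± 1.77 in knockout and 10.1% ± 2.11 in control libraries, with ranges of 15.9% to 20.6% and 8.71% to 14.3%. Hk1 held more of the hexokinase signal than Hk2 in every library, at 54.7% to 70.8% in knockout and 56.7% to 73.1% in control libraries. Aldoa, Eno1, Ldha, Slc2a1 and Hif1a each made up at least 95.2% of their pairs in all 12 libraries. The shares depend on the length used. By the median length of coding transcripts, Slc2a1 held 92.5% to 94.9% of its pair in knockout libraries. Pfkl then held 58.0% in knockout and 72.4% in control libraries, and Pfkm 10.3% and 5.85% (means). These shares are descriptions without a test.

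Among HIF subunits and oxygen sensors, the 3 genes that bring HIF down, Egln1, Egln3 and Vhl, fell, and the 2 alpha subunits did not pass. Hif1a, which encodes HIF-1 alpha, had 323, 323, 274, 317, 195 and 185 CPM in knockout 1 to 6, against 282, 273, 273, 275, 273 and 403 CPM in control 1 to 6 (log2 difference -0.14, SE 0.17, adjusted p = 0.527). Control 6 was the highest library and knockout 5 and 6 the lowest, with knockout 1 to 4 within or above the range of control 1 to 5. Epas1, which encodes HIF-2 alpha, had 6.17, 4.62, 5.70, 4.79, 3.32 and 3.93 CPM in knockout 1 to 6, against 2.85, 4.14, 2.97, 2.87, 2.94 and 6.11 CPM in control 1 to 6 (log2 difference 0.37, SE 0.23, adjusted p = 0.205). Without control 6 its log2 difference was 0.59 (adjusted p = 0.0181), higher in the knockout.

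Egln1, the main oxygen-sensing prolyl hydroxylase, had 79.8, 80.3, 84.8, 82.2, 88.7 and 89.4 CPM in knockout 1 to 6, against 122, 125, 122, 126, 126 and 113 CPM in control 1 to 6 (log2 difference -0.54, SE 0.06, adjusted p = 5.11e-05), with no overlap and little spread in either group. Egln3, a hydroxylase that is itself induced by HIF, had 13.9, 15.1, 13.8, 12.2, 15.9 and 15.9 CPM in knockout 1 to 6, against 45.8, 47.8, 50.1, 47.3, 47.7 and 18.1 CPM in control 1 to 6 (log2 difference -1.56, SE 0.21, adjusted p = 0.000121). The groups did not overlap, but control 6 lay just above the highest knockout library, and the log2 ratios of knockout 1 to 4 and of knockout 5 and 6 were -1.80 and -1.59 over control 1 to 5 and -0.40 and -0.18 over control 6. Vhl, the substrate receptor of the ubiquitin ligase for hydroxylated HIF alpha, had 25.4, 21.2, 27.4, 23.6, 25 and 25.9 CPM in knockout 1 to 6, against 33.3, 31.5, 34.1, 33.2, 32.6 and 24.3 CPM in control 1 to 6 (log2 difference -0.35, SE 0.10, adjusted p = 0.0122). Control 6 was within the knockout range for Vhl, and the log2 ratio of knockout 5 and 6 over control 6 was 0.07.

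All 4 HIF targets that act at mitochondria fell, and none overlapped between groups. Ndufa4l2, which restrains respiration at the electron transport chain under hypoxia, had 3.24, 2.57, 5.22, 4.47, 0.934 and 1.76 CPM in knockout 1 to 6, against 45.0, 45.3, 42.6, 44.3, 49.5 and 34.4 CPM in control 1 to 6 (log2 difference -3.87, SE 0.30, adjusted p = 3.67e-06). Only 18 of the 12146 tested genes had a lower log2 difference, and the smallest of its 4 falls between a knockout and a control set was 9.03-fold. Ndufa4l2 also marks pericytes. The 7 other pericyte markers summed to 423 CPM in knockout 1 to 4, 175 CPM in knockout 5 and 6, 129 CPM in control 1 to 5 and 249 CPM in control 6, an order that crosses genotype. Of these, 0 of 5 tested were lower and 2 higher, Higd1b was at 0, and their part in the Ndufa4l2 result was not tested. Bnip3, a receptor that sends mitochondria to autophagy, had 91.6, 91.6, 113, 92.1, 23.3 and 22.5 CPM in knockout 1 to 6, against 236, 229, 235, 236, 240.2 and 143 CPM in control 1 to 6 (log2 difference -1.61, SE 0.37, adjusted p = 0.00428). Knockout 5 and 6 stood far below knockout 1 to 4, and control 6 below the other controls. Its relative Bnip3l spanned 53.1 to 97.4 CPM in knockout and 118 to 151 CPM in control libraries (log2 difference -0.80, SE 0.16, adjusted p = 0.00167). Higd1a, a small inner-membrane protein of the respiratory chain, had 39.2, 38.7, 50.1, 41.5, 39.1 and 39.6 CPM in knockout 1 to 6, against 74.5, 82.0, 78.3, 70.3, 74.7 and 53.6 CPM in control 1 to 6 (log2 difference -0.80, SE 0.11, adjusted p = 0.000119).

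Of the pH and secreted targets, Car9 fell and Car12 and Adm did not pass. Car9, the carbonic anhydrase widely used as a hypoxia marker, had 0.418, 0.898, 0.158, 0.532, 0.311 and 0.207 CPM in knockout 1 to 6, against 1.68, 2.56, 1.96, 2.1, 2.37 and 1.08 CPM in control 1 to 6 (log2 difference -2.18, SE 0.34, adjusted p = 0.000366). It was near the detection limit, with 1 count in the lowest library, although the groups did not overlap. Car12, a related carbonic anhydrase, had 1.99, 1.80, 1.42, 0.745, 1.66 and 1.66 CPM in knockout 1 to 6, against 1.17, 1.58, 1.31, 1.47, 1.71 and 1.40 CPM in control 1 to 6 (log2 difference 0.10, SE 0.22, adjusted p = 0.727), and its groups overlapped. Adm, which encodes the vasodilator peptide adrenomedullin, had 91.2, 88.1, 101, 92.7, 22.0 and 24.8 CPM in knockout 1 to 6, against 53.9, 54.0, 50.0, 49.7, 49.7 and 135 CPM in control 1 to 6 (log2 difference 0.09, SE 0.41, adjusted p = 0.871). Its 4 sets lay far apart in the order control 6, knockout 1 to 4, control 1 to 5, knockout 5 and 6, which crosses genotype.

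The alpha subunits of collagen prolyl 4-hydroxylase stabilise the collagen triple helix, and of these P4ha2 fell. P4ha2 had 146, 139.9, 147, 140.4, 44.5 and 46.3 CPM in knockout 1 to 6, against 325, 300.5, 321, 325, 290.2 and 249.8 CPM in control 1 to 6 (log2 difference -1.45, SE 0.30, adjusted p = 0.00208), with no overlap. P4ha1 had 573, 585, 577, 577, 185 and 176 CPM in knockout 1 to 6, against 651, 604, 646, 634, 612 and 702 CPM in control 1 to 6 (log2 difference -0.53, SE 0.30, adjusted p = 0.169). Its groups also did not overlap, but knockout 1 to 4 lay close under the controls and knockout 5 and 6 far below, and the test was not passed.

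Ndrg1, a stress-induced protein long known as a hypoxia target, had 14.9, 14.6, 17.4, 16.8, 16.4 and 17.7 CPM in knockout 1 to 6, against 115, 112, 113, 115, 111 and 34.5 CPM in control 1 to 6 (log2 difference -2.62, SE 0.25, adjusted p = 1.36e-05). The 6 knockout libraries were nearly level, and control 6 lay between them and the other controls, so that knockout 1 to 4 and knockout 5 and 6 were 7.16-fold and 6.65-fold lower than control 1 to 5, but 2.18-fold and 2.02-fold lower than control 6. Ankrd37, an ankyrin-repeat protein induced by HIF-1, had 3.24, 3.34, 3.01, 4.79, 3.42 and 2.38 CPM in knockout 1 to 6, against 8.19, 6.33, 7.32, 6.30, 7.43 and 4.58 CPM in control 1 to 6 (log2 difference -0.99, SE 0.18, adjusted p = 0.00108). Control 6 was below knockout 4 for Ankrd37, the only overlap. Kdm3a, a histone demethylase induced by HIF, had 52.1, 57.2, 46.8, 58.6, 27.6 and 34.0 CPM in knockout 1 to 6, against 55.9, 57.2, 63.2, 56.3, 56.2 and 56.2 CPM in control 1 to 6 (log2 difference -0.32, SE 0.16, adjusted p = 0.128), and control and knockout 1 to 4 libraries overlapped.

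**Figure D3:**
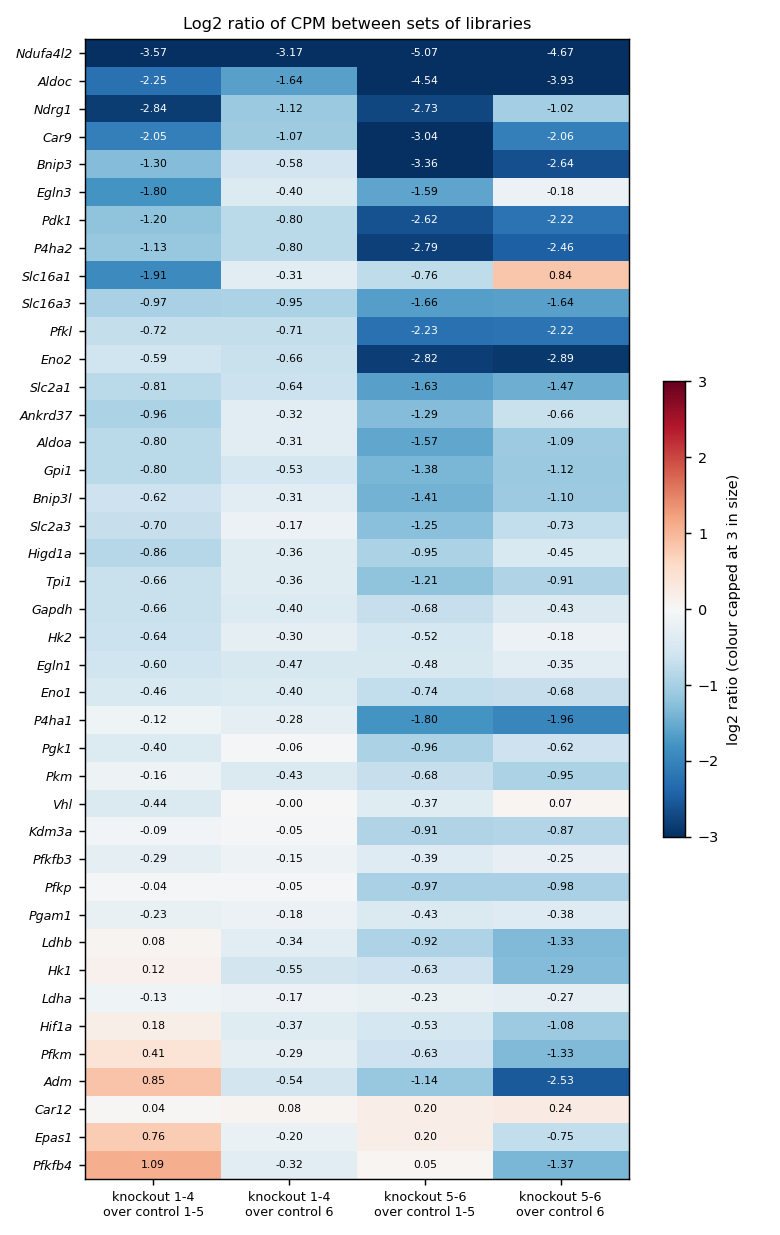
Log2 ratio of CPM of summed counts for each knockout set over each control set (columns) and each of the 41 genes (rows, ordered by the overall log2 difference). Blue cells are lower in the knockout set. The cells of 31 genes are below 0 in all 4 columns, and those of Car12 are above 0 in all 4. The cells of Slc16a1, Hk1, Pfkm, Pfkfb4, Ldhb, Hif1a, Epas1, Vhl and Adm change sign.

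When each knockout set was compared with each control set, 31 of the 41 genes were lower in all 4 comparisons (75.6%), beside 22.4% of all tested genes. The median log2 ratio over the 41 genes was -0.62 and -0.36 for knockout 1 to 4 over control 1 to 5 and over control 6. It was -0.97 and -1.02 for knockout 5 and 6 over the same sets, while the median of all tested genes stayed between -0.02 and 0.01. Knockout 5 and 6 were lower than knockout 1 to 4 for 34 of the 41 genes, and the log2 ratio was below -1 for 11 of them. Control 6 was below all of control 1 to 5 for 25 of the 41, and each of these 25 was among the 29 that fell. For these counts within a genotype, the shares of all tested genes were not worked out. The counts therefore cannot be read as particular to the 41 genes. Slc16a1 and Vhl were the 2 genes that fell without being lower in all 4 contrasts.

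Other genes of the same pathways were read from lists chosen for their role. Over all tested genes, 21.6% were called lower and 21.4% higher, with a median log2 difference of 0.02. Of 30 tested further HIF targets, 16 fell, 4 rose and 10 did not pass, with a median log2 difference of -0.60. Bhlhe40, a hypoxia-induced transcriptional repressor, fell to 56.1 ± 10.1 CPM in knockout libraries, against 118 ± 5.19 CPM in control libraries (SD, n = 6 each; log2 difference -1.08, SE 0.11). Zfp395, a zinc-finger protein induced by hypoxia, fell to 12.8 ± 1.71 CPM in knockout libraries, against 30.9 ± 3.36 CPM in control libraries (SD, n = 6 each; log2 difference -1.28, SE 0.11). Tfrc, the transferrin receptor that imports iron, rose to 128 ± 33.0 CPM in knockout libraries, against 47.0 ± 5.89 CPM in control libraries (SD, n = 6 each; log2 difference 1.45, SE 0.16). Of 11 further HIF pathway components, 3 rose, 1 fell and 7 did not pass (median 0.13). Tceb1, the elongin C subunit of the VHL ligase, rose to 94.3 ± 11.9 CPM in knockout libraries, against 51.9 ± 3.91 CPM in control libraries (SD, n = 6 each; log2 difference 0.86, SE 0.09). Cited2, which competes with HIF for its coactivators, rose to 135 ± 41 CPM in knockout libraries, against 57.0 ± 1.37 CPM in control libraries (SD, n = 6 each; log2 difference 1.25, SE 0.16). Egln2, the third prolyl hydroxylase, fell to 49.6 ± 4.02 CPM in knockout libraries, against 67.8 ± 6.57 CPM in control libraries (SD, n = 6 each; log2 difference -0.45, SE 0.09).

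Of 14 tested side enzymes and minor isoforms of glycolysis, 5 fell, 4 rose and 5 did not pass (median 0.13). The shares of all tested genes were 21.6% lower and 21.4% higher. Pygl, a glycogen phosphorylase, fell to 13.1 ± 4.08 CPM in knockout libraries, against 44.1 ± 1.53 CPM in control libraries (SD, n = 6 each; log2 difference -1.75, SE 0.19). Hk3, a hexokinase of myeloid cells, fell to 0.318 ± 0.123 CPM in knockout libraries, against 1.62 ± 0.346 CPM in control libraries (SD, n = 6 each; log2 difference -2.28, SE 0.27), beside the lower macrophage and leukocyte markers given above. Gpd2, the mitochondrial glycerol 3-phosphate dehydrogenase, rose to 149 ± 26.2 CPM in knockout libraries, against 56.3 ± 17.1 CPM in control libraries (SD, n = 6 each; log2 difference 1.41, SE 0.18).

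Among 12 genes of pyruvate entry into mitochondria, 4 rose, 2 fell and 6 did not pass (median -0.30). For this list and the next 2, the shares of all tested genes were 21.4% higher and 21.6% lower. Dlat, Dld and Pdha1, subunits of the pyruvate dehydrogenase complex, rose, and Dlat was at 92.1 ± 3.43 CPM in knockout libraries, against 70.8 ± 2.13 CPM in control libraries (SD, n = 6 each; log2 difference 0.38, SE 0.06). Dld rose by 0.29 (SE 0.07) and Pdha1 by 0.21 (SE 0.07) on the log2 scale. The TCA cycle, which oxidises acetyl groups in mitochondria, had 6 of 17 genes higher, 3 lower and 8 not past (median 0.11). Idh3a, a subunit of isocitrate dehydrogenase, rose to 135 ± 18.4 CPM in knockout libraries, against 69.9 ± 4.50 CPM in control libraries (SD, n = 6 each; log2 difference 0.95, SE 0.09). Sucla2, of succinyl-CoA synthetase, rose by 0.49 (SE 0.08) on the log2 scale, and Idh3g, another isocitrate dehydrogenase subunit, fell by 0.38 (SE 0.07). The pentose phosphate pathway, which branches from glucose 6-phosphate, had 1 gene higher (Taldo1, log2 difference 0.45, SE 0.07), 1 lower (Pgls, -0.80, SE 0.12) and 6 not past of 8 (median -0.17). Differences between these lists and the 41 genes, or all tested genes, were not tested.

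**Figure D4:**
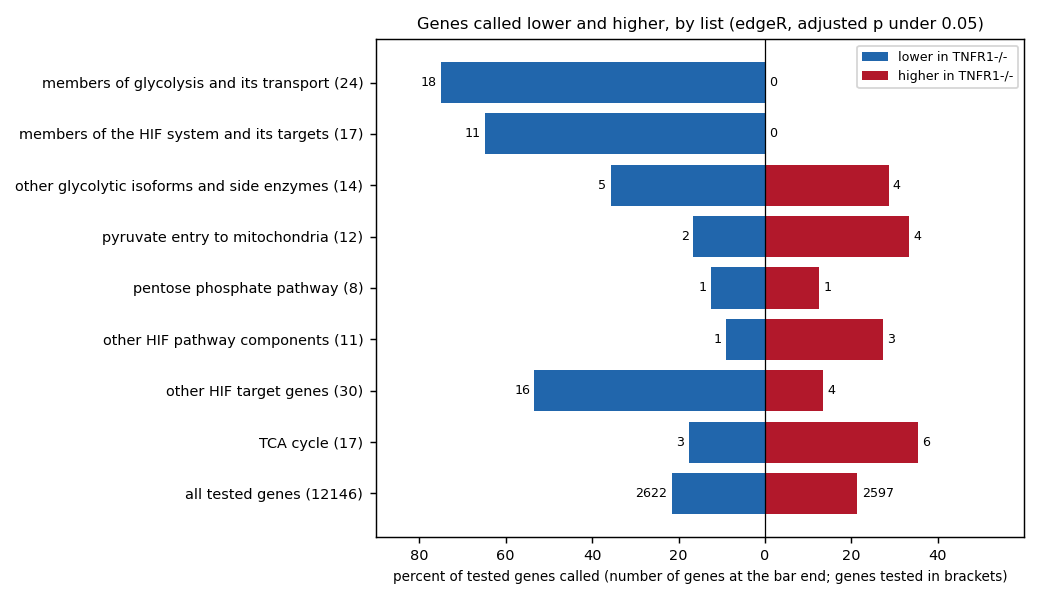
Percent of the tested genes of each list called lower in TNFR1-/- (blue, left of 0) and higher (red, right of 0), with the number of genes at the bar end. The upper bars are the 24 glycolysis and transport genes (18 lower, 0 higher) and the 17 HIF system genes (11 lower, 0 higher), and the last bar is all 12146 tested genes (2622 lower, 2597 higher).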

How the data were processed

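RNA of 12 samples of colonic myofibroblasts was made into stranded oligo-dT libraries, per the labels' protocols. The authors deposited 1 table of expected counts, with 24411 mouse symbols. The submitters' processing notes name RSEM 1.2.15 and Bowtie2 2.1.0. They also name the human build hg38, although the symbols are mouse, so the build is uncertain; annotation and strand setting: not given in the sources used here. Expected counts can share reads between like genes.

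Groups came from the sample titles. Expected counts were rounded to whole numbers, and 12146 genes passed edgeR's filter (minimum count 10, total 15). The 6 knockout and 6 control libraries were compared with edgeR 4.0.16 (R 4.3.3), with TMM scaling, the quasi-likelihood test and Benjamini-Hochberg adjustment over all tested genes at 0.05. Each list is described by its counts and median beside those of all genes. The fitting was tested on simulated data. Alternatives included DESeq2 1.42.0 and limma 3.58.1. Values per library are given for up to 3 genes of each role with the largest log2 difference and for 9 central genes; from each other list, up to 3 called genes with the smallest adjusted p are named. The members and the lists were chosen with earlier results of these data known. Promoter letters are from RefSeq.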

Additional observations from a re-analysis of the deposited data

Results flagged for a closer look

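In each group of 6 libraries, a gene was singled out where its highest or lowest library lay apart from the next by more than Dixon's critical share of the group's range. For independent libraries with normal spread, chance gives this in about 1 of 20 groups. Here 21 of the 82 groups of the 41 genes met it. Genes are not independent, control 6 differed from the other controls over all tested genes, and no share over all tested genes was worked out. The count is therefore a description, not a test. Control 6 was the library apart in 19 of the 21.

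By this measure control 6 stood apart as the lowest control for 13 genes, of the 25 for which it was the lowest. Among transporters and enzymes these were Slc2a1 (389.5 CPM), Slc2a3 (13.7 CPM), Slc16a1 (38.3 CPM), Gpi1 (714 CPM), Aldoa (1591 CPM), Tpi1 (487 CPM) and Pgk1 (903 CPM). Among oxygen sensors and HIF targets they were Vhl (24.3 CPM), Egln1 (113 CPM), Egln3 (18.1 CPM), Bnip3 (143 CPM), Bnip3l (118 CPM) and Ndrg1 (34.5 CPM). It stood apart as the highest control for Hk1 (254 CPM), Pfkm (51.9 CPM), Pfkfb4 (12.1 CPM), Pkm (2983 CPM), Hif1a (403 CPM) and Adm (135 CPM).

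In 2 genes another library stood apart. Higd1a was at 50.1 CPM in knockout 3 and 38.7 to 41.5 CPM in the other knockout libraries. Kdm3a was at 63.2 CPM in control 3 and 55.9 to 57.2 CPM in the other controls.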

How the results depend on the processing

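Across 24 alternatives the 41 genes gave 983 log2 differences: 907 kept direction and side of the threshold, 51 lost the call, 9 gained one and 16 changed sign. Of the 29 genes that fell, 26 kept the call in every alternative that tested them but the 4 summed sets (Car9 was too low to be tested after thinning); the others were Pkm, Eno2 and Pgam1 (adjusted p = 0.0736 with the replicate block in edgeR). With the 4 summed sets, 0 members were called lower in edgeR, though the 29 that fell kept log2 differences below 0. Over all genes, 0 were called lower and 0 higher in edgeR, with 1047 at an unadjusted p under 0.05. With knockout 5 and 6 and control 6 left out, 4508 genes were lower and 4319 higher, and 5 members were higher (Pfkm, Hif1a, Pfkfb4, Epas1 and Adm). Leaving out 1 library gave 27 to 29 members lower and 0 to 2 higher, the 2 being Pfkfb4 and Epas1 without control 6. Sign changed without knockout 5 and 6 for Pfkm (0.26), Ldhb (0.01) and Hif1a (0.06). With control 6 also left out it changed for Hk1 (0.11), Pfkm (0.41), Ldhb (0.08) and Hif1a (0.17). In the 4 summed sets it changed for Pfkfb4 (-0.19), Epas1 (-0.03) and Adm (-0.67), and in limma-voom for Adm (-0.06). Leaving out 1 library moved Adm over -0.04 to 0.44 and Pfkm over -0.08 to 0.14. The cause was not tested. Deviations of same-numbered libraries from their group means correlated at -0.382 to 0.222. The split of each group into sets enters these deviations, so they cannot settle whether the numbers pair libraries. With the replicate block, 27 members were lower and 0 higher, beside 17.3% and 15.4% of all genes. Thinning to equal depth moved Aldoc to -2.41 and Epas1 to 0.14.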

Other observations

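The 41 genes together took 0.863% to 1.19% of all counts in the knockout libraries and 1.48% to 1.71% in the control libraries, without overlap. Within the knockout group, knockout 5 and 6 held 0.871% and 0.863%, and knockout 1 to 4 held 1.13% to 1.19%. Control 6, at 1.48%, was the lowest control. The 19 genes among them for the steps from hexokinase to lactate dehydrogenase, with the regulators Pfkfb3 and Pfkfb4, took 0.759% to 1.00% in the knockout and 1.21% to 1.41% in the control libraries.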
